A study of Mus musculus with 32 samples.

Results

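Strand asymmetry of cisplatin damage and of its repair was measured in mouse liver by comparing, gene by gene, the reads on the transcribed strand (TS) with the reads on the non-transcribed strand (NTS) within each of 4 libraries. The libraries were 2 Damage-seq and 2 XR-seq replicates of liver, out of 32 libraries of the series, which also covers kidney, lung and spleen and RNA-seq. The mice were wild-type C57BL/6J females, 6 or 7 months old, kept under light and dark phases of equal length, and every Damage-seq and XR-seq mouse received 1 intraperitoneal dose of cisplatin at 10 mg per kg, so there is no untreated Damage-seq or XR-seq library. RNA levels come from the 2 RNA-seq libraries of liver after the same dose, and 2 further liver RNA-seq libraries are controls whose mice were injected with saline instead of cisplatin. The labels give 2 h after treatment, whereas the protocol places the injection at ZT1 and the killing at ZT5, which are 4 h apart. The paper calls the 2 libraries of an organ and assay biological replicates, and the methods take Damage-seq DNA from the chromatin pellet of the XR-seq preparation. The labels do not say whether a Damage-seq and an XR-seq library with the same number come from the same liver. All genes of the files were the starting point. Of 25058 genes listed in each file, 25040 had a position in the annotation and 15641 were tested in both assays, after leaving out genes with fewer than 10 GG dinucleotides on a strand, genes of 100 kb or more, and genes with fewer than 20 reads over the 2 liver libraries of either assay.

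Cisplatin forms mainly a crosslink between neighbouring guanines, which is removed from mammalian DNA by nucleotide excision repair. Damage is found either by factors that scan the whole genome, such as XPC with its partner RAD23B, or by an RNA polymerase II that stalls at the adduct in the transcribed strand and brings in CSB (Ercc6) and CSA (Ercc8). The second route, transcription-coupled repair, acts on the TS of transcribed genes only. XR-seq sequences the excised oligomers and so counts repair events, and Damage-seq maps the adducts that remained in the DNA when the liver was taken. Liver is made up mostly of hepatocytes, which secrete plasma proteins and metabolise amino acids, lipids and drugs, beside Kupffer cells, endothelium, stellate cells and bile duct cells. In such a bulk tissue, fewer cells that use a gene and less use per cell cannot be told apart.

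The unit of the comparison is the GG dinucleotide. A GG written on the coding strand is a site on the NTS, and a CC on the coding strand is a GG on the TS. The stretches shown here, each 60 bases of an intron taken at or just past the middle of the gene, come from 4 genes that the results turn on. Capitals mark every GG and CC of the coding strand, read 5′ to 3′ from GRCm38, and all 4 genes lie on the plus strand. Arf2 had one of the strongest TS biases in XR-seq and Zfc3h1 one of the strongest NTS biases in Damage-seq. Otc was repaired with a strong TS bias while its damage was close to even, and A2m has more GG on the TS than on the NTS.
Arf2, chr11:103976038-103976097, 2 GG on the NTS and 7 on the TS: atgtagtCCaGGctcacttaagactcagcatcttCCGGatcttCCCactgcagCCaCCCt
Zfc3h1, chr10:115409285-115409344, 1 GG on the NTS and 2 on the TS: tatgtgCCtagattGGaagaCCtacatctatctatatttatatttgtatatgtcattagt
Otc, chrX:10286664-10286723, 1 GG on the NTS and 4 on the TS: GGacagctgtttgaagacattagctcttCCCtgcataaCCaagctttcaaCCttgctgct
A2m, chr6:121657301-121657360, 3 GG on the NTS and 2 on the TS: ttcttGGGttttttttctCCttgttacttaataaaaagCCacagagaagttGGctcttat
Over the whole gene body the sites are far more numerous and the strands more even. Arf2 has 1071 GG on the NTS and 1052 on the TS, Zfc3h1 has 2115 and 1819, Otc has 3014 and 3318, and A2m has 1785 and 2528. All ratios below are reads per GG of the TS over reads per GG of the NTS, as log2, so that 0 means the same density on both strands and 1 means a TS density 2 times that of the NTS.

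XR-seq was read far more deeply than Damage-seq. The 2 XR-seq libraries held 44969671 and 35259101 TS reads and 7737936 and 6811522 NTS reads on genes, and the 2 Damage-seq libraries held 1772348 and 1080100 TS reads and 2263176 and 1359001 NTS reads. The median gene tested had 115 and 110 NTS reads in the XR-seq libraries and 43 and 27 in the Damage-seq libraries, so a ratio of a single gene is much less precise in Damage-seq, and the numbers of genes past the threshold in the 2 assays cannot be compared with each other. Replicates of each assay differed by more than the sampling of reads, with a chi-square over its degrees of freedom of 24.2 (TS) and 8.75 (NTS) in XR-seq and of 1.58 and 1.68 in Damage-seq. The per-gene ratios of the replicates had a Spearman rho of 0.931 in XR-seq and 0.697 in Damage-seq over the 15641 genes, and of 0.982 (10236 genes) and 0.836 (4192 genes) where each library of the assay had at least 50 NTS reads. The tissue label was checked against markers. The 8 of 10 hepatocyte markers tested had RNA levels between 224 and 41294 RPKM (reads per kb of exon and 1000000 reads) in liver after cisplatin, against at most 1.23 RPKM for the 4 of 5 kidney tubule markers tested and 0.309 to 26.0 RPKM for the 4 lung epithelial markers.

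Repair was biased to the TS and remaining damage to the NTS in all 4 libraries. The TS held 85.3% and 83.8% of XR-seq reads and 43.9% and 44.3% of Damage-seq reads. The median gene had a log2 ratio of 2.13 and 1.95 in XR-seq, which is 4.39 and 3.85 times as many reads per GG on the TS as on the NTS, and of −0.49 and −0.49 in Damage-seq, which is a TS level of 0.712 times that of the NTS in both replicates. By edgeR's quasi-likelihood test with Benjamini-Hochberg adjustment (adjusted p under 0.05), 10188 genes (65.1% of those tested) had more XR-seq reads on the TS and 1746 (11.2%) had more on the NTS. In Damage-seq, 5529 genes (35.3%) had less damage on the TS and 164 (1.05%) had more. DESeq2, with the same block and threshold, called 2771 and 28 genes in Damage-seq, and the genes called by it were all among those called by edgeR.

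The asymmetry of both assays followed the RNA level, but with a different shape. Genes were split into those with no RNA reads after cisplatin (2363 genes) and 5 equal classes of the rest, from class 1 (lowest RPKM) to class 5 (highest). Genes without RNA reads had medians near even strands, with log2 ratios of −0.14 and −0.17 in XR-seq and 0.00 and −0.01 in Damage-seq. Single genes among them still departed from even in XR-seq, where 9.31% were called with more reads on the TS and 18.3% with more on the NTS. In XR-seq the medians then rose through 0.27 and 0.29 in class 1 and 2.33 and 2.14 in class 2 to 3.67 and 3.43 in class 3, where the median RNA level was 1.82 RPKM, and were lower in class 5, at 2.77 and 2.55 with a median RNA level of 25.6 RPKM. Damage-seq had no such turn. Its medians were 0.00 and 0.00 in class 1, −0.16 and −0.18 in class 2, −0.93 and −0.87 in class 3, −1.38 and −1.31 in class 4 and −1.50 and −1.41 in class 5. Across genes, the fitted ratio had a Spearman rho with RPKM of 0.493 in XR-seq and −0.693 in Damage-seq (15641 genes, which are not independent replicates and share the same libraries).

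Each strand was also taken alone. TS reads of XR-seq per 1000000 library reads and per 1000 GG had a median of 0.357 in genes without RNA reads, 9.37 in class 2, 33.4 in class 3, 32.0 in class 4 and 26.8 in class 5 (replicate 1). NTS reads on the same scale rose throughout, with 0.391 in genes without RNA reads, 1.89 in class 3 and 3.51 in class 5, so the lower XR-seq ratio of the most transcribed genes went with a TS level that no longer rose and an NTS level that did. In replicate 2 the TS medians of classes 3 and 5 were 32.2 and 25.1. Remaining damage on the NTS was nearly flat, between 8.54 and 9.18 across the 6 classes in replicate 1. Remaining damage on the TS fell from 9.18 in genes without RNA reads to 4.43 in class 3 and 3.03 in class 5.

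**Figure D1:**
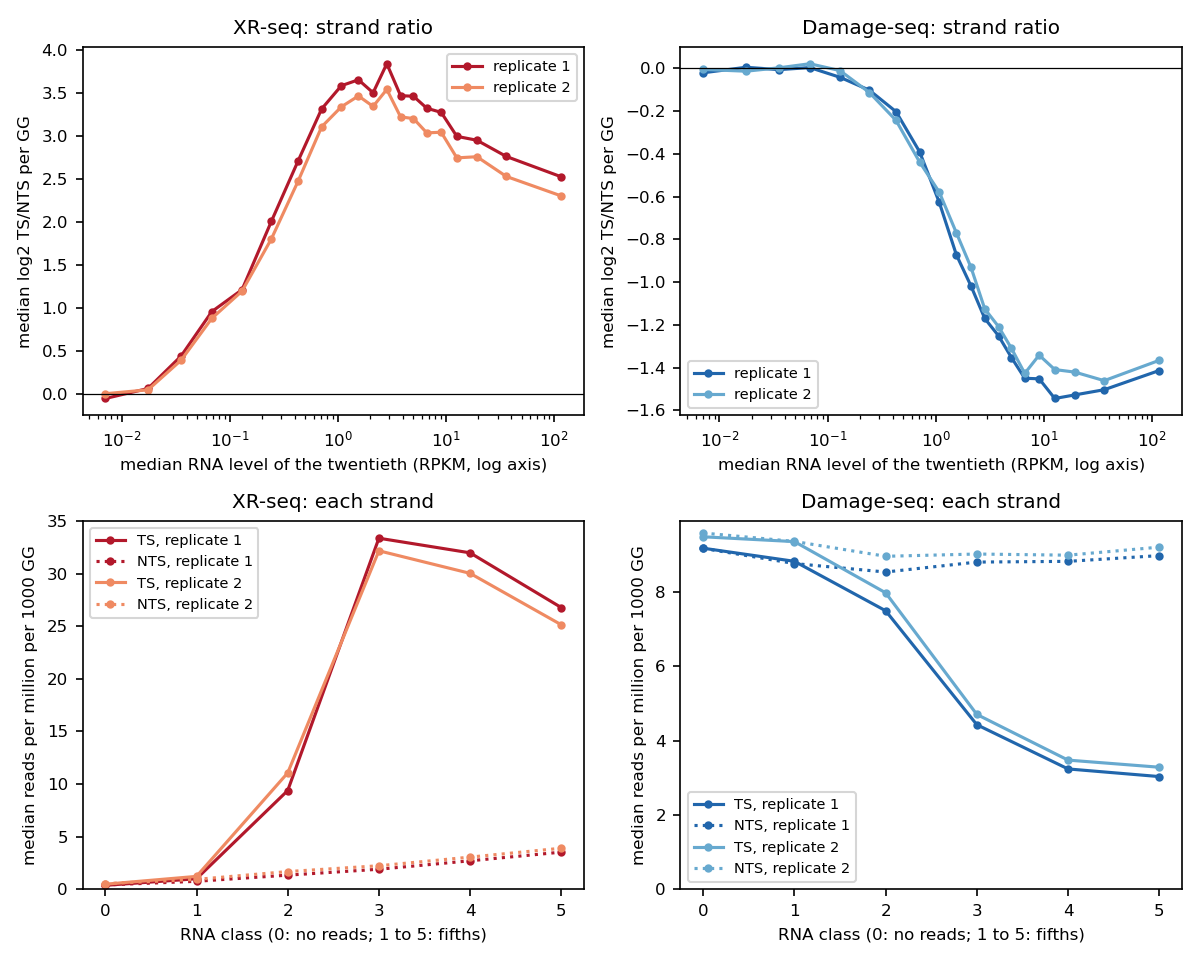
Upper panels plot the median log2 TS/NTS ratio per GG of each of 20 equal groups of genes against its median RNA level (RPKM, log axis) for both XR-seq and both Damage-seq replicates. Lower panels plot the median reads per 1000000 library reads and 1000 GG of each strand in genes without RNA reads (class 0) and in classes 1 to 5 by RNA level. The XR-seq ratio peaks at 2.84 RPKM (3.84 and 3.54) and is lower at the top (2.52 and 2.30), while the Damage-seq ratio falls and then levels off.

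The strongest TS bias of repair was found in genes such as Arf2, Slc29a3 and Erich1. Named genes were protein-coding and free of any annotated gene on the other strand, the strongest were in addition called in that assay, and here they had at least 20 NTS reads in each XR-seq library, which 5329 genes met. The 10 strongest were Arf2, Slc29a3, Erich1, Wdr60, Mum1, Cep164, Zdhhc8, Cep97, Rrp12 and Wfs1, with ratios between 6.53 and 7.85 in the 2 replicates and RNA levels between 0.38 and 5.75 RPKM. In Arf2 (ENSMUSG00000062421, chr11:103966739-103985337), a small GTPase of the Golgi, XR-seq counted 3923 TS and 35 NTS reads in replicate 1 and 2845 and 22 in replicate 2. Its log2 ratios were 6.81 and 7.01 (fitted 6.92 ± 0.30 SE, adjusted p = 8.78e-19). Slc29a3 (ENSMUSG00000020100), a nucleoside transporter of lysosomes, had 13045 TS and 96 NTS reads in replicate 1 and 11379 and 96 in replicate 2, log2 ratios of 6.99 and 6.80. Wdr60, a subunit of the dynein of cilia, had 6.78 and 7.68, Cep164, of the distal appendages of the mother centriole, had 6.88 and 6.60, and Cep97, a centriolar suppressor of cilium growth, had 6.56 and 7.05. Rrp12, a factor of ribosome assembly, had 6.97 and 6.54, and Wfs1, a protein of the endoplasmic reticulum membrane, had 6.58 and 6.53. In Damage-seq, 7 of these 10 genes had less damage on the TS, against 35.3% of all genes. Among protein-coding genes without an opposite-strand gene, so had 487 of the 826 in the top 10% by XR-seq ratio. Arf2 had −1.33 and −1.48 in Damage-seq (20 TS and 52 NTS reads in replicate 1, 6 and 18 in replicate 2) and Wdr60 had −0.25 and −0.16 (adjusted p = 0.313). With DESeq2 the Damage-seq calls of Arf2, Cep164, Zdhhc8, Cep97 and Rrp12 were lost.

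Repair was biased to the NTS in the expressed genes with the weakest ratios, 7 of 10 of which lie tail to tail with a close gene of the other strand. Genes with at least 10 RPKM and at least 100 XR-seq reads in each replicate (1759 genes) were ordered, and the lowest 10 were Cd74, Oit3, Gpx3, Traf4, Myl6, Atp5j2, Aspdh, Mcts1, Cct5 and H2-Ab1, all called with more reads on the NTS. Cd74, the invariant chain of MHC class II, had 55 TS and 486 NTS reads in replicate 1 and 54 and 421 in replicate 2 (log2 −3.21 and −3.03). Oit3 had 218 and 1670 reads in replicate 1 and 202 and 1902 in replicate 2 (−2.98 and −3.28), and Gpx3, the glutathione peroxidase of plasma, had 172 and 1059 and then 157 and 1081 (−2.65 and −2.81). The other 7 lay between −1.61 and −0.71 in single replicates. Leaving out either XR-seq replicate kept the sign of all 10 genes and ended the call of Oit3, Myl6, Aspdh, Mcts1, Cct5 and H2-Ab1, and leaving out replicate 2 ended that of Atp5j2. The fit over all organs also ended the calls of Aspdh, Mcts1, Cct5 and H2-Ab1. A convergent gene, that is an annotated gene of the opposite strand whose 3′ end faces that of the named gene, lay within 5 kb of 7 of the 10, as of 535 of the 1785 genes of the same kind with at least 10 RPKM. The neighbour lies 982 bp from Oit3 (Pla2g12b, 60.1 RPKM), 408 bp from Gpx3 (Tnip1, 3.35 RPKM), 1103 bp from Cd74 (Tcof1, 1.83 RPKM) and 681 bp from Cct5 (Cmbl, 114 RPKM). In such a pair the TS of one gene and the NTS of the other are the same DNA strand. Whether transcription of the neighbour reaches into the named gene was not tested.

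A smaller TS bias was also found next to convergent genes across all expressed genes without an overlapping partner. Among protein-coding genes with at least 10 RPKM and no opposite-strand gene over their body, the 535 with a convergent gene within 5 kb had median XR-seq ratios of 2.37 and 2.07, and the 1250 without one had 3.17 and 2.95. More XR-seq reads on the NTS were called in 2.43% of the former and 0.32% of the latter. Remaining damage differed little between the same groups, with −1.47 and −1.41 against −1.54 and −1.45. Overlap itself went with a smaller ratio in both assays. Genes with no opposite-strand gene (9275) had XR-seq medians of 2.46 and 2.28, and genes with such a gene over 50% or more of their body (1420) had 0.02 and 0.12. Of the latter, 35.1% were called with more XR-seq reads on the NTS, against 7.40% of the former, and 101 of the 164 genes called with more damage on the TS were among them. By annotation class, antisense RNA genes had reversed XR-seq medians of −0.90 and −0.79 (620 genes, 94.5% of which overlap a gene of the other strand), lincRNA genes had 0.38 and 0.25 (1045), and protein-coding genes had 2.44 and 2.26 (13452).

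The strongest asymmetry of remaining damage was found in genes of higher RNA level than those that led XR-seq. With at least 50 NTS reads in each Damage-seq replicate, 1025 genes were called and ordered, and the 10 strongest were Zfc3h1, Clic4, Nck1, Otud4, Tpp2, Rad23b, Ppp3r1, Atl3, Arih2 and Zfyve1, with RNA levels between 4.33 and 33.2 RPKM. Zfc3h1 (ENSMUSG00000034163, chr10:115384959-115432772), a partner of the nuclear RNA exosome, held 9 TS and 80 NTS Damage-seq reads in replicate 1 and 5 and 52 in replicate 2. Its log2 ratios were −2.87 and −3.04 (fitted −3.00 ± 0.29 SE, adjusted p = 0.00134). Clic4, an intracellular chloride channel protein, held 22 and 142 reads and then 13 and 87 (−2.60 and −2.63), and Otud4, a deubiquitinase, held 11 and 76 and then 5 and 58 (−2.50 and −3.18). Rad23b, the partner of XPC in finding damage outside transcription, was itself among them, with 15 and 93 reads in replicate 1 and 12 and 70 in replicate 2 (−2.41 and −2.31). Others encode the regulatory subunit of calcineurin (Ppp3r1, −2.30 and −2.81), tripeptidyl peptidase II (Tpp2, −2.46 and −2.54), a ubiquitin ligase (Arih2, −2.49 and −2.26) and an adaptor of receptor tyrosine kinases (Nck1, −2.54 and −2.73). All 10 were also called with more repair on the TS, at XR-seq ratios between 2.20 and 4.10 in single replicates, well under those of the XR-seq leaders, and all 10 Damage-seq calls were kept when either Damage-seq replicate was left out.

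The weakest damage asymmetry among genes with at least 10 RPKM and 50 NTS reads in each replicate (305 genes) was found in Tgfbi, Rarres1, Rgs5, Pnrc1, Dnase1l3, Rdh16, Aifm1, Igsf5, Otc and Timd4. Tgfbi, a protein of the extracellular matrix, held 60 TS and 59 NTS reads in replicate 1 and 45 and 51 in replicate 2 (fitted 0.11 ± 0.18 SE, adjusted p = 0.71). Otc (ENSMUSG00000031173, chrX:10252305-10321024), the ornithine transcarbamylase of the urea cycle in hepatocytes, held 114 and 120 reads in replicate 1 and 55 and 65 in replicate 2 (log2 −0.21 and −0.38), although its RNA level was 128 and 99.2 RPKM. Aifm1, a mitochondrial flavoprotein that is also X-linked, held 70 and 82 and then 38 and 50 (−0.12 and −0.29). Known places of expression of the others include macrophages for Timd4 (−0.39 and −0.09), pericytes for Rgs5 (0.16 and −0.13) and hepatocytes for the retinol dehydrogenase Rdh16 (−0.19 and −0.29). Of the 10, only Igsf5 was called in Damage-seq (−0.37 and −0.22, adjusted p = 0.0429), and that call was lost without the replicate block, with DESeq2 and without either replicate. All 10 were called with more repair on the TS, with Otc at 3.77 and 3.28, Aifm1 at 4.88 and 4.45 and Igsf5 at 4.59 and 4.55. The XR-seq call of Timd4 was lost with DESeq2, in the fit over all organs, without the filter on low counts, without the replicate block and without the GG term. Leaving out either XR-seq replicate ended the calls of Timd4, Tgfbi, Rarres1, Rgs5, Dnase1l3, Rdh16 and Otc, and the fit over all organs also ended those of Tgfbi, Rgs5 and Dnase1l3.

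**Figure D2:**
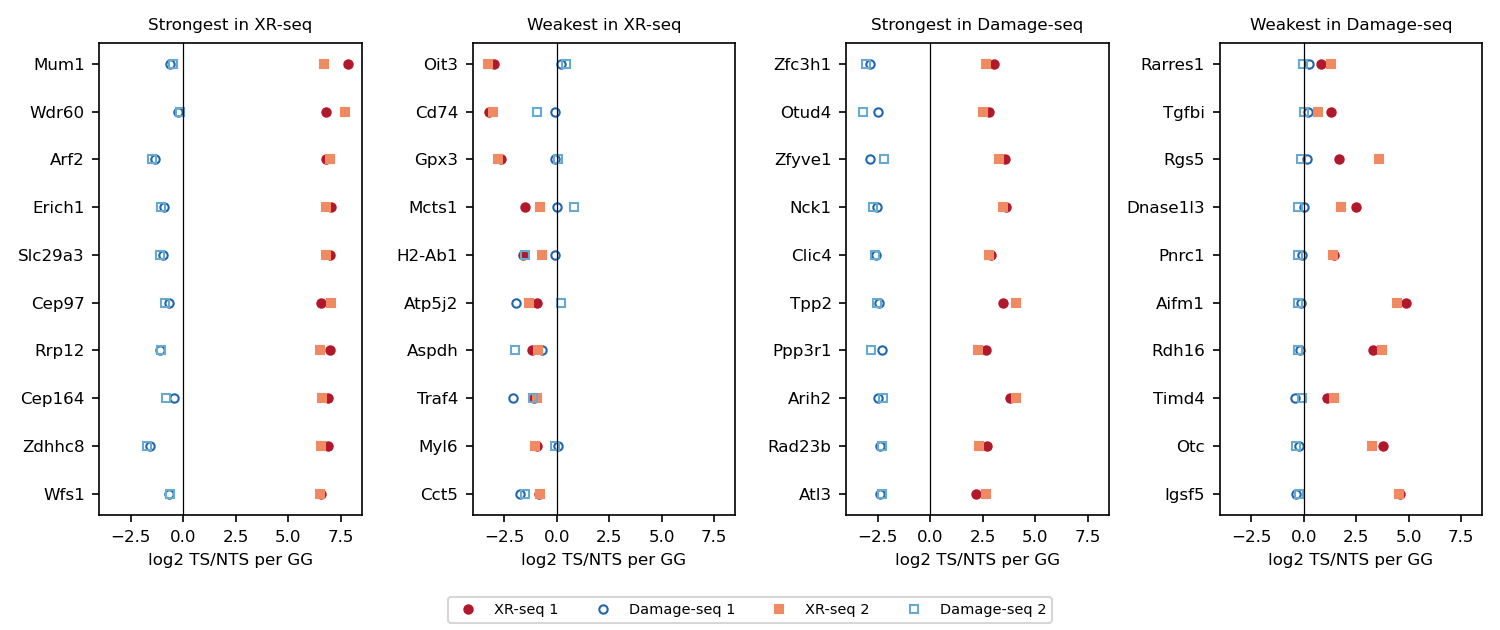
Each panel lists 10 genes, with the log2 TS/NTS ratio per GG of each of the 4 liver libraries on the horizontal axis. The panels hold the highest and lowest XR-seq ratios and the strongest and weakest Damage-seq asymmetry. The genes labelled weakest in XR-seq have the lowest ratios among genes with at least 10 RPKM and are biased to the NTS. The leaders of XR-seq (6.53 to 7.85) have modest Damage-seq ratios, the leaders of Damage-seq have XR-seq ratios between 2.20 and 4.10, and the genes with the weakest damage asymmetry have Damage-seq points near 0.

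Since Otc and Aifm1 are X-linked, genes were also split by chromosome, a comparison chosen after the values of these genes had been seen. In female cells one X chromosome is kept silent. In RNA classes 4 and 5, the 133 X-linked genes had median Damage-seq ratios of −0.50 and −0.48, against −1.46 and −1.37 for the 5179 autosomal genes. The medians of the 19 autosomes taken singly ranged from −1.65 to −1.34 in replicate 1 and from −1.47 to −1.27 in replicate 2, so the X chromosome lay outside this range in both. The difference was on the TS, where X-linked genes had a median of 6.80 and 6.51 reads per 1000000 library reads and 1000 GG and autosomal genes 3.11 and 3.33. On the NTS the medians were 9.81 and 9.59 against 8.88 and 9.07. Of the X-linked genes 26 (19.5%) were called with less damage on the TS, against 70.5% of the autosomal ones. XR-seq ratios of the same genes lay closer together, at 3.27 and 2.83 for the X chromosome and 3.04 and 2.80 for autosomes, and 90.2% and 91.7% were called. In the 6 Damage-seq libraries of kidney, lung and spleen, the same genes had medians that were higher on the X chromosome by 0.25 to 0.46 in each library, whereas in XR-seq of those organs the difference ranged from −0.27 to 0.31.

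The 2 assays mostly shared their direction, and their extreme ends were largely separate. Of the 5529 genes with less damage on the TS, 5339 (96.6%) also had more repair on the TS, and these were 52.4% of the 10188 genes on the XR-seq list. Only 26 genes combined less damage on the TS with more repair on the NTS, and 14 combined more damage on the TS with more repair on the TS. More damage on the TS together with more repair on the NTS was called in 128 genes, which are 78.0% of the 164 and 7.33% of the 1746. In genes without an opposite-strand gene this combination was called in 13 of 33 (39.4%) with more damage on the TS. Among all genes with at least 50 NTS reads in each Damage-seq replicate it was called in 5 of 10. With both limits together it was called in 0 of 1. Across the 15641 genes the fitted ratios had a Pearson r of −0.486 and a Spearman rho of −0.522. With at least 50 NTS reads in each Damage-seq replicate (4192 genes), rho was −0.563, and 2001 of 2018 genes with less damage on the TS (99.2%) were on the XR-seq list, 64.1% of its 3120 genes in this set. The tops of the lists were largely separate. Of 2050 protein-coding genes without an opposite-strand gene and with that depth, the 10% with the highest XR-seq ratio and the 10% with the strongest damage asymmetry, 205 genes each, shared 7 genes (3.41% of either). Unrelated sets of this size would share about 10%, so the overlap was below that share.

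Damage asymmetry was greatest at a middle XR-seq ratio. Genes with an XR-seq log2 ratio between 0 and 1 had Damage-seq medians of −0.17 and −0.15, those between 2 and 3 had −0.93 and −0.81, and those between 3 and 4 had −1.27 and −1.17. Above that the damage ratio came back towards 0, with −1.01 and −0.94 between 5 and 6 and −0.74 and −0.77 above 6 (255 genes). The share of genes called in Damage-seq was 60.7% between 3 and 4 and 47.5% above 6. The median RNA level of these groups fell from 4.48 RPKM (3 to 4) to 0.994 RPKM (above 6), so the RNA level moved with this turn. Its part in the result was not tested.

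**Figure D3:**
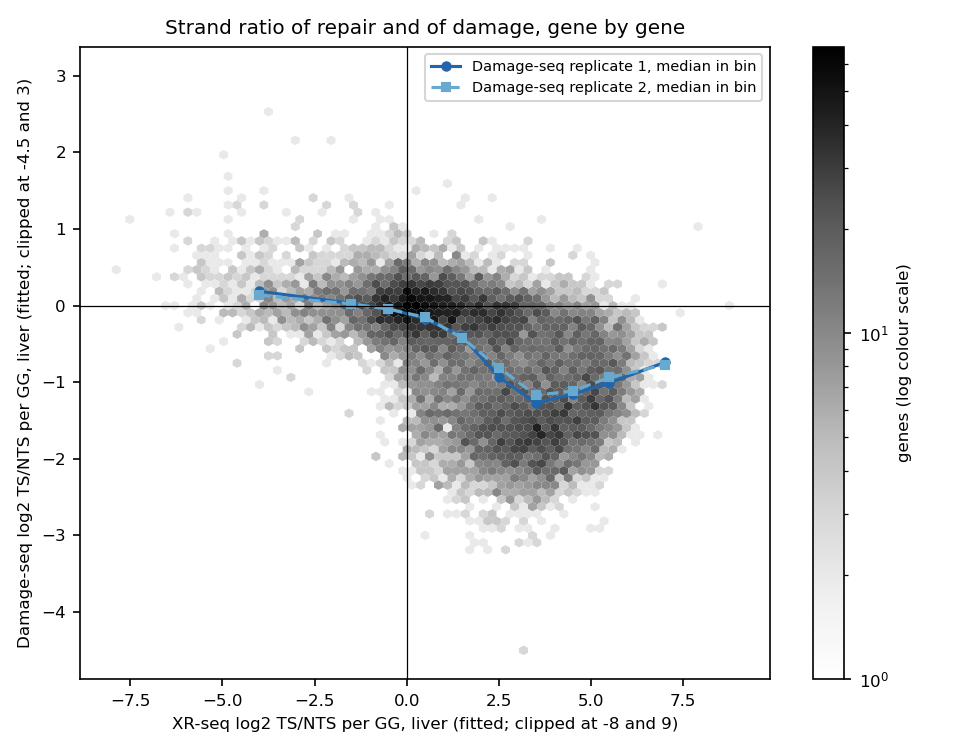
Each gene's fitted Damage-seq log2 TS/NTS ratio (vertical axis) is plotted against its fitted XR-seq ratio (horizontal axis), with darkness on a log scale for the number of genes, and lines join the median Damage-seq ratio of each bin of XR-seq ratio in both replicates. The lines fall to −1.27 and −1.17 at an XR-seq ratio of 3 to 4 and come back to −0.74 and −0.77 above 6.

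Genes in which the assays stood apart were of different kinds at the 2 ends. With an XR-seq ratio in the top 10% (above 5.10) and at least 50 NTS reads in each Damage-seq replicate, the least damage asymmetry was found in Cyp2j8, Lzts1, Sytl4, Ift122 and Wdr35, with RNA levels between 0.042 and 0.254 RPKM. Wdr35, a subunit of the transport particle of cilia, had 4907 TS and 75 NTS XR-seq reads in replicate 1 and 4003 and 125 in replicate 2 (6.27 and 5.24), and its damage was even, with 87 TS and 104 NTS reads in replicate 1 and 63 and 75 in replicate 2 (fitted −0.01 ± 0.15 SE). Ift122, of the same particle, had 5.21 and 5.06 in XR-seq and 0.02 and 0.19 in Damage-seq. Cyp2j8, a cytochrome P450, had 986 TS and 5 NTS reads in replicate 1 and 709 and 9 in replicate 2, and 0.37 and 0.12 in Damage-seq.

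At the other end, with an XR-seq ratio under 0.5, the strongest damage asymmetry was found in Atg13, Bphl, Scn4b, A2m and Tmem72. Atg13, of the kinase complex that starts autophagy, had 2349 TS and 1706 NTS XR-seq reads in replicate 1 and 1863 and 1079 in replicate 2 (0.31 and 0.64), while Damage-seq counted 25 and 79 and then 15 and 52 (−1.79 and −1.91, adjusted p = 0.00163). Bphl, a serine hydrolase, had XR-seq ratios of 0.16 and 0.40 and Damage-seq ratios of −2.14 and −1.41. Its 3′ end lies 200 bp from Tubb2a, a convergent gene of 427 RPKM, and that of Atg13 lies 2292 bp from Arhgap1 (3.58 RPKM). The remaining 3 genes had at most 0.0286 RPKM on average. For A2m, whose Damage-seq reads were 86 and 86 in replicate 1 and 45 and 54 in replicate 2, the fitted value was −0.60 (adjusted p = 0.0287) with GG 1.42 times as many on the TS, and without the GG term it was −0.10 (adjusted p = 0.71). The call of A2m was also lost with DESeq2 (−0.63), without the filter on low counts (−0.60) and without either replicate (−0.76 and −0.50). Tmem72 lost its call under every alternative run other than taking genes of any length, at −0.28 without the GG term (adjusted p = 0.231), −0.01 against the median of all genes and −0.51 to −0.50 in the others. Without the GG term, Scn4b gained a call (−0.77, adjusted p = 0.0196). In 1843 genes with no RNA reads in the 4 liver RNA-seq libraries, the log2 ratio of reads rose with the log2 ratio of GG with a slope of 0.528 and 0.721 in Damage-seq and 0.375 and 0.829 in XR-seq, under the slope of 1 that division by GG assumes.

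Damage asymmetry grew with gene length up to 20 to 50 kb, changed little from there to 100 kb and was weaker in longer genes. Among genes of 3 to 10 RPKM, Damage-seq medians were −1.03 and −0.99 under 5 kb and −1.24 and −1.21 at 10 to 20 kb. They were −1.45 and −1.37 at 20 to 50 kb and −1.46 and −1.37 at 50 to 100 kb. In genes over the length limit of the tests they were weaker again, with −1.22 and −1.09 at 100 to 200 kb (198 genes) and −0.60 and −0.63 at 200 to 500 kb (40 genes). XR-seq medians of the same groups were 2.83 and 2.54 under 5 kb, 3.81 and 3.58 at 50 to 100 kb and 3.88 and 3.60 at 200 to 500 kb, and the 4 genes above 500 kb had 2.83 and 2.67.

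By function, the genes that hepatocytes use most combined a moderate repair ratio with a damage ratio stronger than that of all genes. For each list the count called stands beside the shares of all genes tested, 65.1% for more repair on the TS and 35.3% for less damage on the TS. Medians stand beside those of all genes, 2.02 for the fitted XR-seq ratio and −0.46 for the fitted Damage-seq ratio. RNA class 5 had 89.7% and 69.6% called, with replicate medians of 2.77 and 2.55 in XR-seq and −1.50 and −1.41 in Damage-seq. Of the lists in this paragraph and the next, only fatty acid oxidation had stronger damage medians than this class (−1.70 and −1.57). The genes named from each list are its 2 highest and its lowest by XR-seq ratio unless another reason is given. Unlike the genes named above, list members could overlap an annotated gene of the other strand. Such overlap was present in 15 of the 72 plasma protein genes, 16 of the 36 genes of fatty acid oxidation and 6366 of all 15641 genes. Of 72 plasma protein genes tested, 62 were called in XR-seq and 42 in Damage-seq, with medians of 2.12 and −1.30. The complement component C9 led in XR-seq (5.16 and 4.98, with −0.08 and −0.62 in Damage-seq), followed by the coagulation factor F7 (4.44 and 4.89), and Afp, which adult liver hardly uses, was lowest (−3.64 and −2.31 at 1.22 and 0.38 RPKM). Enzymes of the urea cycle and amino acid catabolism had 40 and 30 of 43 genes called, with medians of 2.25 and −1.35, and were led by Cth of cysteine synthesis (4.31 and 4.18) and Agxt of glyoxylate removal (4.16 and 3.96). Glutaminase Gls2 was lowest (0.20 and 0.27 in XR-seq, −0.98 and −1.37 in Damage-seq). Fatty acid oxidation had 32 and 31 of 36 genes called, with medians of 2.66 and −1.69, led by the peroxisomal enzyme Ehhadh (4.30 and 3.94 in XR-seq, −1.66 and −1.99 in Damage-seq) and Bdh1 of ketone body metabolism (3.89 and 3.99), with Acadvl lowest (−0.34 and −0.02).

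Lipid, sugar and drug metabolism gave the following counts. Cholesterol synthesis and uptake had 23 and 21 of 27 genes called (medians 2.78 and −1.30), with mevalonate kinase Mvk at 6.45 and 6.06 in XR-seq and −1.21 and −1.04 in Damage-seq. Bile acid synthesis and transport had 17 and 17 of 23 called (2.25 and −1.13), with Cyp39a1, an oxysterol hydroxylase, at 5.84 and 5.49 and −0.64 and −0.84, and with the transporter Slco1a1 lowest (−3.22 and −2.79 at 1.01 and 0.766 RPKM). Gluconeogenesis and glycogen had 18 and 12 of 22 called (2.21 and −1.26), with the glycogen synthase Gys2 at 4.21 and 4.44. Cytochromes P450 had 49 and 25 of 58 called (2.54 and −0.76), with Cyp3a59 next after Cyp39a1 (5.74 and 5.26) and Cyp2g1 lowest (−0.41 and −0.75). Conjugation enzymes had 38 and 20 of 38 (2.87 and −1.12), so that every one tested was called in XR-seq, with the sulfotransferase Sult1c2 (5.17 and 6.21) and the glutathione transferase Gsta4 (5.75 and 5.02) highest and Gstz1 (0.56 and 0.39) lowest. Members of the Cyp, Ugt, Gstm and Serpina1 families share near-identical sequence, and the mapping quality filter of the authors could drop reads unevenly among them. Of 22 major urinary protein genes 1 was tested.

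Genes that every cell uses had damage medians stronger than those of all genes. Apart from the splicing factors, these medians were close to those of RNA class 5 (−1.50 and −1.41 in the replicates). The share called in Damage-seq among ribosomal proteins was near that of all genes. The ribosomal protein genes tested had a median length of 5.01 kb, against 19.7 kb for all genes, and short genes were called less often. Of genes with at least 1 RPKM, 24.2% under 5 kb and 87.0% at 50 to 100 kb were called with less damage on the TS. The proteasome had 32 and 22 of 36 genes called (medians 2.85 and −1.64), the respiratory chain and its assembly factors 57 and 40 of 68 (2.77 and −1.49), splicing factors 20 and 18 of 25 (1.73 and −1.85), chaperones 17 and 12 of 22 (2.83 and −1.53), and cytosolic ribosomal proteins 25 and 10 of the 28 tested out of 84 (1.96 and −1.67). The splicing factors thus had the strongest median Damage-seq ratio of the lists. Their fitted XR-seq median was below that of all genes, but the replicates differed. Their medians were 2.23 and 1.37 in the 2 XR-seq libraries, against 2.13 and 1.95 for all genes, so only replicate 2 was lower. Psmc5, the lowest proteasome gene in XR-seq, had more repair on the NTS (−0.59 and −1.10) and strongly less damage on the TS (−3.61 and −2.71, adjusted p = 0.0052). A gene of the other strand overlaps 16 of the 36 proteasome genes and 10 of the 25 splicing factors. Its part in the XR-seq ratios of these lists was not tested. The core clock list had 16 and 15 of 17 genes called (3.05 and −1.71). The kinase Csnk1e, which marks clock proteins by phosphorylation, had 5.14 and 5.03 in XR-seq.

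Excision repair genes had the highest median XR-seq ratio of the lists, 4.42, with 29 of 31 genes called, and a median Damage-seq ratio of −0.97 with 14 called. Their median RNA level was 2.53 RPKM, within RNA class 3, where 90.3% and 52.5% of genes were called. In the replicates the list had medians of 4.71 and 4.05 in XR-seq and −1.06 and −0.76 in Damage-seq. Class 3 had 3.67 and 3.43, and −0.93 and −0.87. Ercc8, which encodes the CSA protein of transcription-coupled repair, led with 7.11 and 6.36, at 0.41 and 0.342 RPKM, and Pold1, the catalytic subunit of DNA polymerase delta, followed with 6.65 and 6.43. Rad23b, which is among the strongest genes in Damage-seq, had 2.70 and 2.33. Targets of p53 had 21 and 14 of 23 called (3.43 and −1.19), led in XR-seq by the damage sensor Xpc (5.62 and 5.32) and the polymerase Polk (5.74 and 5.09), with the apoptosis inducer Bbc3 lowest (0.37 and 0.10). Immediate-early genes, with a short median length of 7.88 kb, had 17 and 4 of 20 called (2.79 and −0.73). They were led by Nr4a1 (4.80 and 4.68) and Dusp5 (4.04 and 4.05), with Fosl1 lowest (−3.45 and −3.12). Genes of mitosis and DNA replication, which resting hepatocytes barely use, had 19 of 30 called in XR-seq (2.57) and 0 in Damage-seq (−0.10). The replicative helicase subunits Mcm3 (5.90 and 7.02 at 2.18 and 1.16 RPKM) and Mcm4 (5.16 and 6.29) led, and cyclin A2 (Ccna2) was lowest (−2.31 and −1.97).

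Genes of other tissues and of cells that are few in liver had little damage asymmetry. Of 21 endothelial and stellate cell genes 16 were called with more repair on the TS (median 1.82) and 0 with less damage on it (−0.08). Of 16 macrophage and neutrophil genes, whose median RNA level was 23.1 RPKM, 6 were called in XR-seq (1.27) and 0 in Damage-seq (−0.22). The complement gene C1qb of Kupffer cells had XR-seq ratios of 5.85 and 4.34 and Damage-seq ratios of 0.15 and 0.61, and the Kupffer lectin Clec4f had 2.56 and 3.16 in XR-seq and −0.54 and −0.89 in Damage-seq. Olfactory and vomeronasal receptors had 17 of 95 called with more repair on the TS, 24 with more on the NTS and 3 with less damage on the TS. Of 59 replication-dependent histone genes 4 were tested, of which 4 were called in XR-seq and 1 in Damage-seq. Hox genes had 4 of 25, keratins and skin genes 4 of 31, kidney tubule genes 1 of 18, B and T cell genes 1 of 19 and erythroid genes 1 of 10 called with more repair on the TS. Lung epithelial genes had 3 of 14 called with more repair on the TS and 8 with more on the NTS (median −2.49). In 1 of the latter, Scgb1a1, the RNA level was 18.3 and 33.7 RPKM while XR-seq counted 0 TS reads against 50 and 57 NTS reads. Repair of its TS was thus not detectable at this depth although RNA was. Whether this RNA of a lung marker was made in liver cells was not tested.

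**Figure D4:**
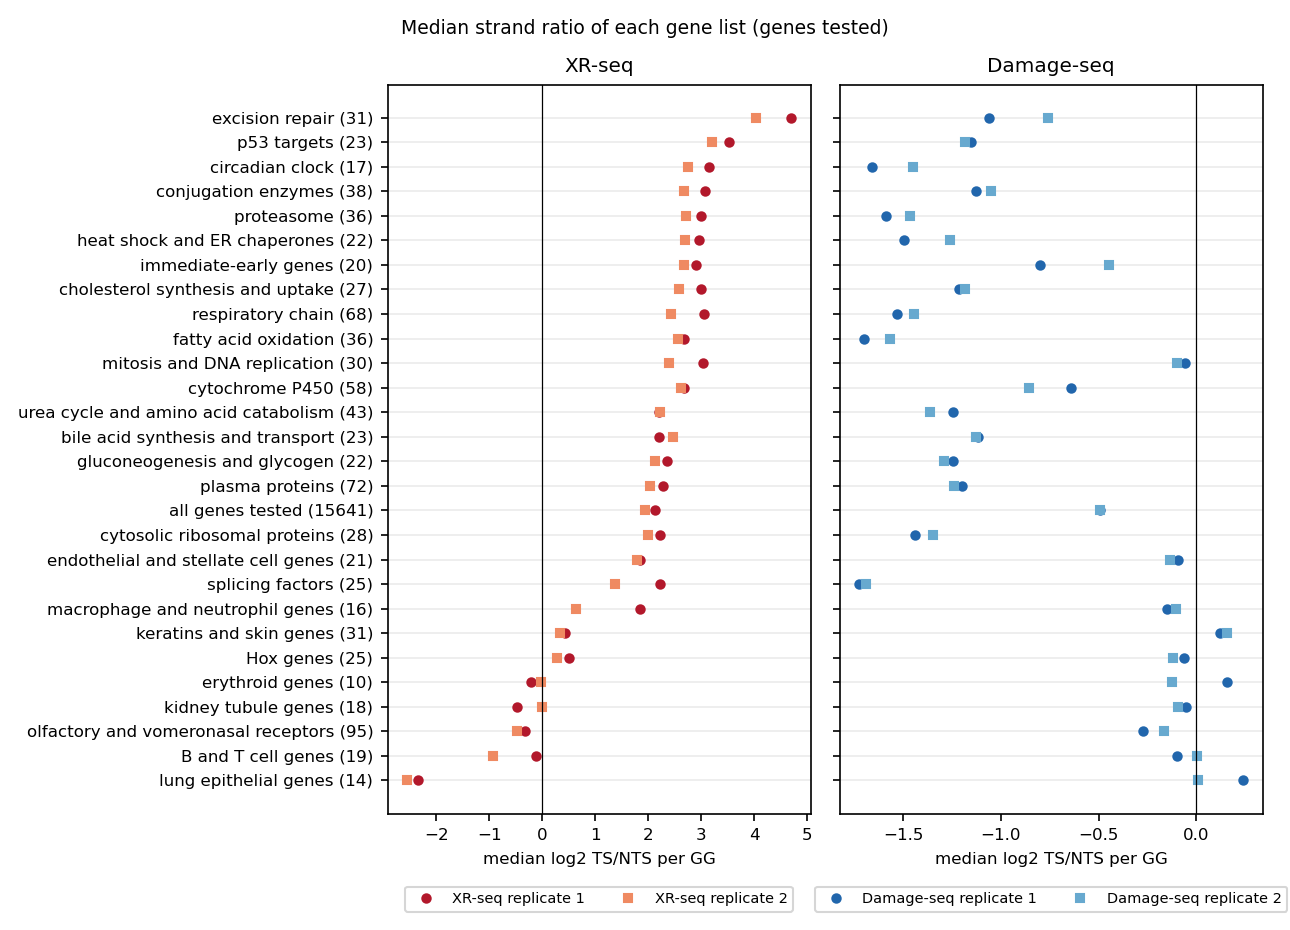
Median log2 TS/NTS ratio per GG of each gene list in both XR-seq replicates (left) and both Damage-seq replicates (right), with the number of genes tested in brackets. Excision repair has the highest XR-seq medians, splicing factors the most negative Damage-seq medians, and lists of other tissues lie near 0 in Damage-seq.

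Compared with the other organs, the liver had a lower TS over NTS ratio in both repair and remaining damage. Its median XR-seq ratio was 2.04 ± 0.13 (SD, n = 2), against 2.82 ± 0.31 (n = 6) in kidney, lung and spleen, and every liver library was below every other one. Its median Damage-seq ratio was −0.49 in both libraries, against −0.30 ± 0.05 (n = 6), again with no overlap. The exact two-sided permutation test over the 28 ways to choose 2 of 8 libraries gave p = 0.0357 for either assay, which is the smallest it can give and is 0.0357 after adjustment over both. Libraries of the same organ are not independent of each other in such a test. Gene by gene (edgeR, adjusted p under 0.05), the XR-seq ratio was higher in liver in 498 genes (3.18%) and lower in 2137 (13.7%), and the Damage-seq ratio was higher in 57 (0.364%) and lower in 1274 (8.15%). After each library was centred on its median gene, these became 1040 and 534 in XR-seq and 151 and 519 in Damage-seq. From genes without RNA reads to class 5 of the liver RNA level, the median difference between liver and the other organs was −0.29, −0.60, −0.34, −0.51, −0.94 and −1.17 in XR-seq. In Damage-seq it was −0.02, 0.03, −0.02, −0.40, −0.63 and −0.77.

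The Damage-seq ratio was lower in liver in 21 of 43 genes of the urea cycle and amino acid catabolism, 24 of 72 plasma proteins, 17 of 36 genes of fatty acid oxidation and 13 of 23 of bile acid synthesis and transport, and higher in 0 of each, against 8.15% and 0.364% of all genes. Cytochromes P450 had 11 of 58, conjugation enzymes 5 of 38 and the core clock 5 of 17 lower in liver, the proteasome 3 of 36, splicing factors 1 of 25 and the respiratory chain 1 of 68. In RNA class 5 as a whole, 528 of 2656 genes were called in either direction. In XR-seq, fatty acid oxidation was lower in liver in 19 of 36 genes and higher in 0, and plasma proteins were higher in 9 of 72 and lower in 1.

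The genes named next were picked for the largest differences in these same libraries. Their separation in single libraries follows from that choice and is given as a description. Cfi, a regulator of complement, held 33 TS and 84 NTS Damage-seq reads in liver replicate 1 and 16 and 60 in replicate 2, log2 ratios of −1.54 and −2.08, while the 6 other libraries lay between −0.24 and 0.59. The fitted difference was −1.94 ± 0.29 SE (adjusted p = 3.78e-07). Abcb4, the phospholipid exporter of bile, had −1.63 and −2.10 in liver and between −0.39 and 0.34 elsewhere (−1.83 ± 0.26 SE). Cyp2b9 (−1.70 ± 0.31 SE) and Cyp4f13 (−1.69 ± 0.39 SE) were also among the largest falls, and the liver libraries did not overlap with the others in any of these 4 genes. The genes whose damage ratio was higher in liver were Me2, Atp8b2, Atp2a3, Timp2 and Plxnd1, with RNA levels between 0.471 and 4.17 RPKM in liver. Me2, a mitochondrial malic enzyme, had 0.31 and 0.24 in liver and between −1.60 and −0.37 elsewhere (1.04 ± 0.25 SE, adjusted p = 0.00262), and the fitted liver ratios of the 5 lay between 0.10 and 0.31.

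In XR-seq the largest rises in liver were mostly in genes near even strands there and biased to the NTS elsewhere. Tdo2, which starts the breakdown of tryptophan, had 0.01 and 0.48 in liver and between −8.40 and −4.55 in the 6 other libraries (difference 6.68 ± 0.61 SE, adjusted p = 0.000602). Slc10a1, the bile acid uptake transporter, had 0.25 and 0.17 in liver and between −9.23 and −4.37 elsewhere, and Arg1, the arginase of the urea cycle, had 0.51 and 0.80 and between −6.48 and −3.86. Tmprss6, a protease of iron control, and Itih2, a plasma protein, completed the 5, and all 5 have a convergent gene within 2676 bp and RNA levels between 176 and 796 RPKM in liver. The opposite was seen in Kctd17, whose 3′ end lies 364 bp from that of Tmprss6. Kctd17 had −0.34 and 0.43 in liver and between 2.72 and 5.80 elsewhere (−4.17 ± 0.51 SE), while Tmprss6 had 2.30 and 1.93 in liver and between −5.92 and −0.97 elsewhere. The TS/NTS ratios of the 2 genes thus moved in opposite directions, which in a convergent pair is a shift towards the same DNA strand. Cdh16, a cadherin of kidney, had −4.83 and −5.23 in liver and 3.01 and 2.56 in kidney (−4.76 ± 0.46 SE against all 6), beside Pdp2 at 2885 bp. Adora2b, Tro and Vps11 completed the 5 largest falls, and Vps11 was the only one of these without a convergent gene within 5 kb. Of all protein-coding genes without an opposite-strand gene, 2189 of 8257 had such a neighbour, and 535 of 1785 with at least 10 RPKM. Naming needed at least 20 NTS reads in each of 8 XR-seq libraries. This limit leaves out genes with few NTS reads outside liver, so it can favour NTS bias there and convergent neighbours. How far it did so was not tested.

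**Figure D5:**
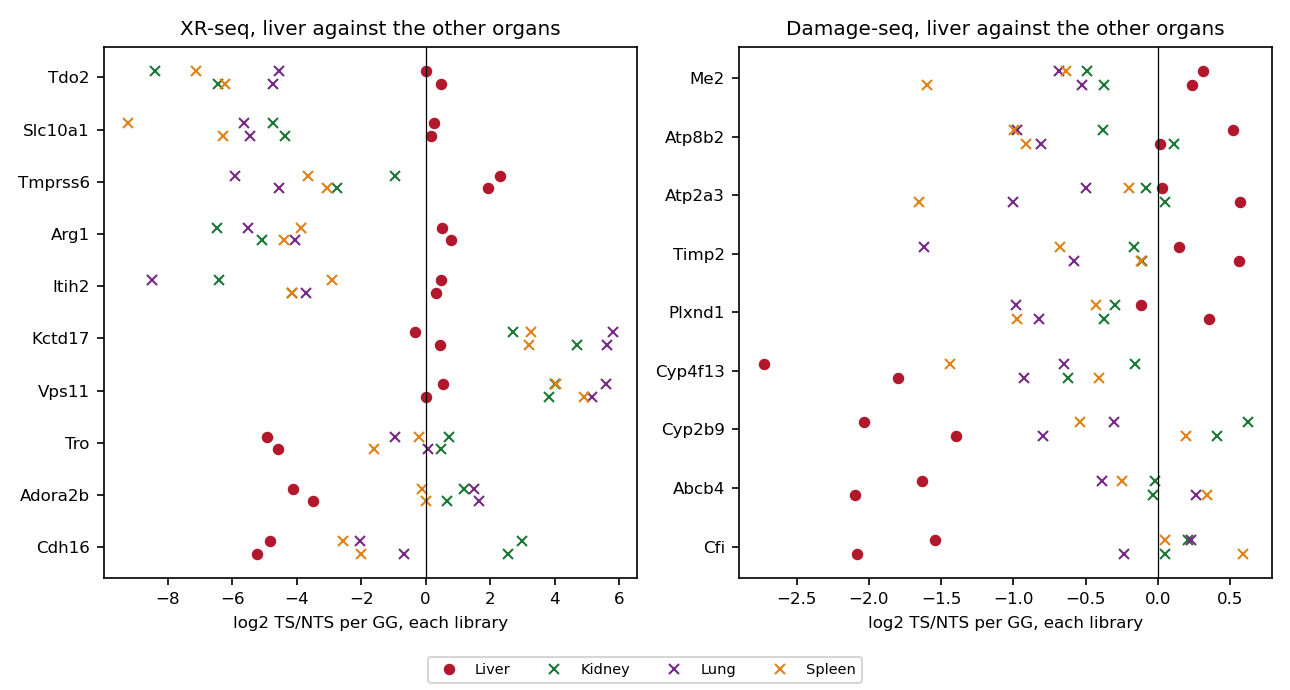
Log2 TS/NTS ratio per GG of every library for the genes whose ratio in liver differed most from the other organs, for XR-seq (left) and Damage-seq (right), with circles for liver and crosses for kidney, lung and spleen. Liver points of Tdo2 lie at 0.01 and 0.48 beside crosses between −8.40 and −4.55, and those of Cfi at −1.54 and −2.08 beside crosses between −0.24 and 0.59.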

How the data were processed

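According to the methods and labels, adapters were removed with cutadapt, reads were placed on mm10 by BWA and duplicates were marked by Picard. Alignments needed a mapping quality over 20 and a GG at the damage position, at the read start in Damage-seq and near the 3′ end in XR-seq. The authors deposited unnormalized counts, 1 for each gene and strand. RNA-seq counts were deposited by the authors after STAR and featureCounts. Versions are not given in the sources used here, and the steps before counting were not repeated.

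GG dinucleotides and exon lengths were taken from GRCm38 and GENCODE M21, and RPKM was computed from the RNA-seq counts after cisplatin as the mean of 2 libraries. TS and NTS counts were compared in R 4.3.3 with edgeR 4.0.16 (quasi-likelihood, library as block, offset of library reads times GG, 15641 genes, adjusted p under 0.05). DESeq2 1.42.0 and the other alternatives are given in the closing section. Ratios of single libraries had 0.5 added to each count. The fits were tested on simulated data. The remaining steps ran in Python 3.11.15 (pandas 2.3.3, numpy 2.4.6, scipy 1.17.1, matplotlib 3.10.9).

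Named genes were those with the most extreme ratio in the less extreme of the 2 replicates, 10 at each end of each assay and 5 for genes where the assays stood apart or for the organ differences by fitted value, under the depth limits given in the text (for the organ differences at least 20 NTS reads in each of 8 XR-seq libraries or 30 in each of 8 Damage-seq libraries). The genes, lists and comparisons were chosen with earlier results of these data known. Some genes that the rule selects are not reported here. Since labels do not tie libraries to animals, p-values measure the spread between these libraries.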

Additional observations from a re-analysis of the deposited data

Results flagged for a closer look

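The difference of the strand ratio between liver and the mean of kidney, lung and spleen was itself tested for every gene (edgeR interaction, adjusted p under 0.05), and the values named in the report are collected here as log2 differences. In XR-seq the liver ratio was higher by 6.68 for Tdo2, 5.89 for Slc10a1, 5.58 for Tmprss6, 5.54 for Arg1 and 5.0 for Itih2. It was lower in liver for Cdh16 (−4.76), Adora2b (−4.62), Tro (−4.51), Vps11 (−4.33) and Kctd17 (−4.17). In Damage-seq the liver ratio was higher by 1.04 for Me2, 0.94 for Atp8b2, 0.88 for Atp2a3, 0.85 for Timp2 and 0.76 for Plxnd1. It was lower for Cfi (−1.94), Abcb4 (−1.83), Cyp2b9 (−1.70) and Cyp4f13 (−1.69). Both liver libraries of the assay lay on the same side of the mean of the others for each of these genes, which their selection from the same libraries favours. The causes of these differences were not tested.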

How the results depend on the processing

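Damage-seq depth limits single genes, and the filter on reads removed 6442 genes. The offset assumes that reads follow GG in proportion, which genes without RNA did not. Counts for liver alone follow, in the order XR-seq TS above, XR-seq TS below, Damage-seq TS below, Damage-seq TS above, where they moved by over 1.5 times. Against the median of all genes they were 6287, 5518, 3259 and 1834, and without opposite-strand genes 6271, 701, 3110 and 29. With a single liver library per assay, in a fit over all organs that assumes it varies like the others, they were 5370 to 5796, 622 to 698, 3257 to 4401 and 61 to 92. DESeq2 gave 2771 and 28 in Damage-seq, the fit over all organs gave 1093 for XR-seq TS below, and no filter on low counts gave 62 for Damage-seq TS above. For liver against the other organs, in the order XR-seq above, XR-seq below, Damage-seq above, Damage-seq below, DESeq2 gave 789, 3392, 3 and 323, centring gave 1040, 534, 151 and 519, and leaving out a liver replicate gave 84 to 96, 285 to 411, 4 to 13 and 131 to 414. Without the replicate block, where the block is the library that holds both strands, the counts were 10075 and 1673 in XR-seq, 5912 and 213 in Damage-seq, and 707, 2959, 37 and 948 between organs. The cause of these shifts was not tested beyond the fewer genes or samples that some of them use.

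Among values of named genes called in the main fit, centring on the median of all genes (log2 2.13 and 1.95 in XR-seq, −0.49 in Damage-seq) turned the sign of the Damage-seq value of Igsf5 to 0.18. It also turned the XR-seq values of Abcb4 (−0.0076), Arg1 (−1.39), Atg13 (−1.56), Atp2a3 (−0.60), Pnrc1 (−0.61), Rarres1 (−0.98), Tgfbi (−1.04) and Timd4 (−0.73). Some values not called in the main fit turned too, such as Otc in Damage-seq (−0.27 to 0.22) and Bphl in XR-seq (0.28 to −1.76). Of the values of named genes under all alternatives, 1375 kept their side of the threshold, 122 lost their call, 32 gained one, and 9 called values turned. The library medians and the relation of the assays kept direction and side under every alternative run for them.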

Other observations

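Among genes without RNA reads after cisplatin, 9.31% were called with more XR-seq reads on the TS and 0.846% with less damage on it, and in RNA class 1 31.8% and 1.32% were called. Calls in the opposite direction were 18.3% in XR-seq and 0.931% in Damage-seq in the former and 27.0% and 2.45% in the latter. In class 2, with a median of 0.321 RPKM, 69.9% were called with more XR-seq reads on the TS and 15.1% with less damage on it, and 15.6% and 2.37% in the opposite direction.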
